A study of Mus musculus with 20 samples.

Results

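The effect of alkali shared by mice with and without oxalate was measured as the alkali term of an additive model of diet and alkali, fitted to RNA sequencing counts of all 20 mouse libraries of the series. The libraries form 4 groups of 5: oxalate mice given alkali, control mice given alkali, untreated oxalate mice and untreated control mice. The series describes the alkali as bicarbonate supplementation and the disease as crystal nephropathy, kidney damage caused by crystals. Both alkali groups carry the word "late" in their names, which the labels do not explain, and the labels give no tissue, strain, sex, age, oxalate dose or sampling time. Of 25700 gene identifiers, 15430 were expressed highly enough to be tested. The additive model fits a common alkali effect to all 20 libraries while allowing for diet. In the separate fits by diet, oxalate libraries are set against oxalate libraries and control against control, so those 2 fits share no library.

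Kidney genes were abundant in every library. Lrp2, the endocytic receptor megalin of the proximal tubule, had at least 805 CPM (counts scaled to each library's total), and Umod, uromodulin of the thick ascending limb, had at least 1840.3. Cyp11b1 of the adrenal gland and Ckm of skeletal muscle were at or near 0. Adipoq, a fat cell gene, exceeded 1 CPM in 6 libraries and reached 42.4 CPM in alkali-treated oxalate library 33, 28.5 in untreated control library 26, 18.4 in untreated control library 9, 17.4 in alkali-treated control library 4, 3.16 in untreated oxalate library 32 and 2.66 in alkali-treated control library 1. Total counts ran from 25547840 to 39550689, and libraries of 1 group differed by more than counting noise, with a chi-square per degree of freedom of 9.03 to 230 between pairs. Mitochondrially encoded genes held 9.06% to 14.5% of counts in alkali-treated and 7.11% to 9.64% in untreated oxalate libraries. In control libraries they held 8.86% to 10.5% with alkali and 9.53% to 10.8% untreated. The part of this share in the results was not tested. The labels do not say that each library is a separate animal, so p-values measure the spread between these libraries, which may be technical in part.

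The kidney sets blood bicarbonate by reclaiming filtered bicarbonate in the proximal tubule, by making ammonia from glutamine in the same cells, and by secreting acid or base from intercalated cells of the collecting duct. Glutamine enters proximal tubule cells through the transporter Slc38a3, gives up its nitrogen in the mitochondria, in part through the enzyme Glud1, and its carbon leaves towards glucose through Pck1, the cytosolic phosphoenolpyruvate carboxykinase. This pathway is known to run harder in acidosis and to slow when alkali is given. The distal convoluted tubule fine-tunes magnesium and calcium, and its channel Trpm6 is known to be lowered by acidosis in rodents.

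By the main test, the alkali term common to both diets called few genes. At an adjusted p under 0.05 (edgeR quasi-likelihood test, Benjamini-Hochberg over all 15430 genes), 42 genes were higher with alkali (0.272%) and 33 were lower (0.214%), 75 in all (0.486%). Of these, 4 rose and 15 fell at least 2-fold. Of the 75, 5 could not be tested in control libraries alone, where the same test called 0 genes. DESeq2 and limma-voom with quality weights called more genes for the common term, as given below. Among the lower genes were Slc38a3 and Pck1 of ammonia production, the glutathione transferases Gsta2 and Gstm1, the glucuronosyltransferase Ugt2b37, the lipid enzyme Mogat2, the clock repressor Ciart and the sterol regulator Insig1. Among the higher were the magnesium channel Trpm6, the carboxylesterase Ces1g, the carotenoid-cleaving enzyme Bco1 and the angiotensin receptor Agtr1a. The median log2 fold change of all genes was -0.0020, and 955 (6.19%) and 1044 genes (6.77%) were higher and lower at an unadjusted p under 0.05. In bulk RNA, fewer cells of a type and less RNA per cell cannot be told apart.

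How firmly a gene was called differed widely. Each library was left out in turn, and 36 of the 75 genes were called in all 20 of these fits, 18 higher and 18 lower. Another 25 were called in fewer than 10 of them. The number of the 75 genes kept ran from 40 (without untreated oxalate library 12) to 64 (without untreated control library 9), and was 41 and 43 without alkali-treated oxalate libraries 30 and 5. Without the 6 libraries with Adipoq above 1 CPM, 6 genes were called higher and 16 lower, 17 of the 75 were kept, and 12 of those were among the 36. The 17 kept there were Fam25c, Sorcs1, Bco1, Ugt2b37, F2, Gsta2, Olfm4, Ces1g, Trpm6, Rarres2, Slc38a3, Insig1, Medag, Slc16a6, Crisp1, Cxcl2 and Pvalb, and all other called genes had an adjusted p of 0.0527 to 0.17. Log2 fold changes below are alkali over untreated, each ± SE from the additive model unless a diet is named, and CPM are from here on scaled by edgeR's trimmed mean of M-values.

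Other settings ended fewer calls, given here for the genes named in the text. With total-count scaling the adjusted p was 0.052 to 0.0968 for Amigo1, Rarres2, Prkag2, Lrp12, Cdkl1, Serpina10, Ramp3, Sptb, Gm2115, Htr2b, Uroc1, Ly6a and 2810021J22Rik, and 0.183 for Arnt2. With no filter on low counts it was 0.0516 to 0.0781 for Sptb, Mapk8ip1, Ly6a, Coq10b, 2810021J22Rik, Slc13a4, Fgf1, Arnt2, Pvalb, Cxcl1 and Clec2h. With DESeq2's size factors it was 0.0615 for Arnt2 and 0.0546 for Clec2h. With limma-voom it was 0.0573 for Cxcl1 and 0.0531 for Htr2b, and with quality weights 0.073 for Uroc1, 0.0661 for Clec2h and 0.0562 for Htr2b. Hc, Crisp1, Cxcl2 and Htr2b, which were near 0 in control libraries, had an adjusted p of 0.0736 to 0.686 with 4 group means in place of the additive model. Some genes given below as not called passed in other fits. With DESeq2 the adjusted p was 0.0137 for Pde1a, 0.00778 for Tsc22d3, 0.00741 for Slc20a1, 0.021 for Krt8 and 0.0439 for Hspb1. With limma-voom it was 0.0129 for Krt20 and 0.0386 for Trem2. With quality weights it was 0.0307 for Foxi1, 0.0248 for Fxyd4 and 0.0166 for Slc13a3. Most of their other alternative fits gave no call.

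**Figure D1:**
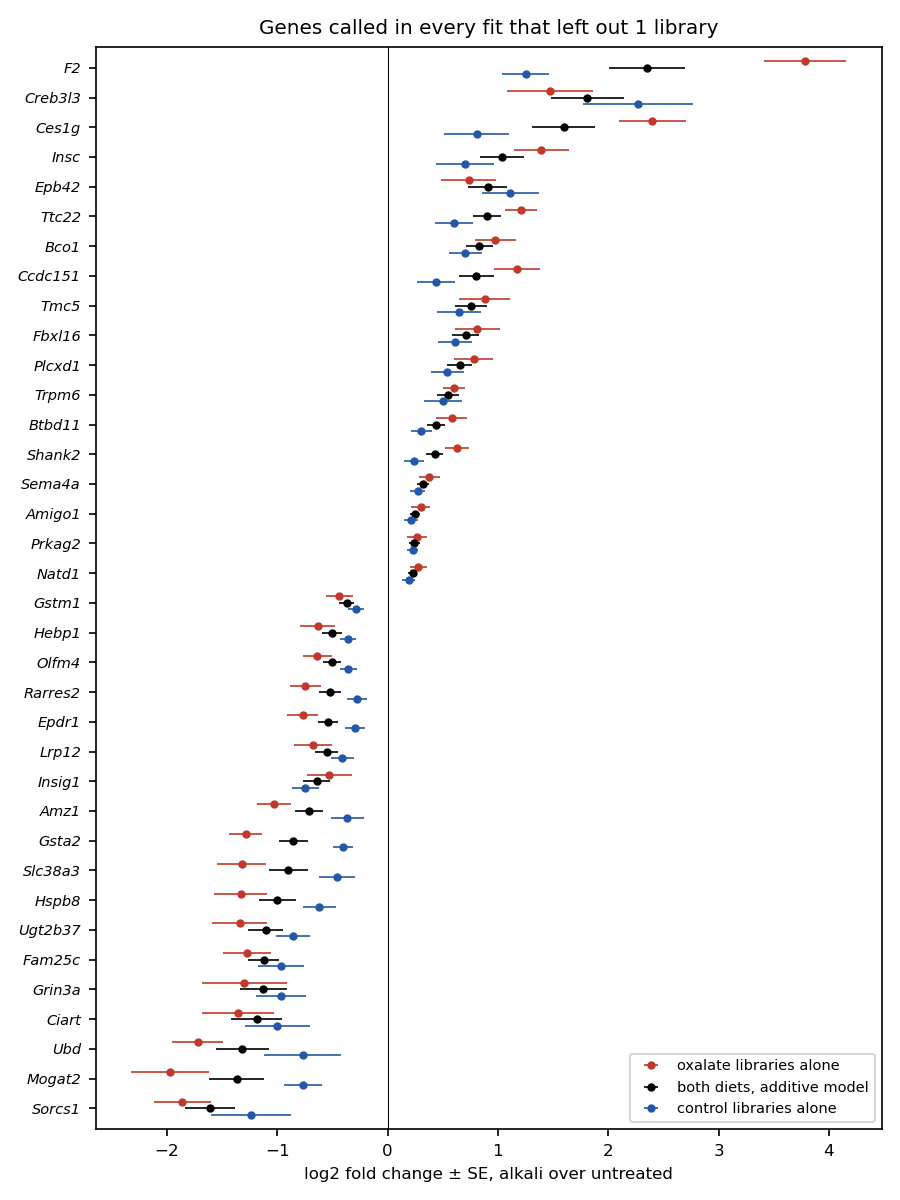
Log2 fold change of alkali over untreated (horizontal axis, point ± SE) for the 36 genes called in all 20 fits that left out 1 library (vertical axis). Red points are oxalate libraries alone, black points the additive model over both diets and blue points control libraries alone. F2, Creb3l3 and Ces1g lie farthest to the right and Sorcs1, Mogat2 and Ubd farthest to the left, and all 3 points of each gene lie on the same side of 0.

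In ammonia production Slc38a3, the glutamine transporter of the basolateral membrane, fell. In oxalate libraries Slc38a3 had 34, 25.2, 26.3, 18 and 19.1 CPM with alkali, against 87.4, 61.3, 43.7, 71.9 and 45.8 CPM untreated. In control libraries Slc38a3 had 37, 25.8, 30.1, 41.3 and 32.8 CPM with alkali, against 36.8, 60.3, 52.8, 42.1 and 36.6 CPM untreated. The oxalate groups did not overlap, while the control groups did, with alkali-treated libraries 1 and 4 above the lowest untreated ones. For Slc38a3 the log2 fold change was -0.90 ± 0.17 (SE, adjusted p = 0.0192), with -1.32 ± 0.22 in oxalate libraries alone and -0.46 ± 0.16 in control libraries alone. It was called in all 20 fits that left out 1 library and without the Adipoq libraries (adjusted p = 0.0389).

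Pck1 is among the most abundant genes of proximal tubule metabolism. In oxalate libraries Pck1 had 1048, 672, 582, 481 and 431 CPM with alkali, against 1798, 2257, 2179.9, 2469 and 859.6 CPM untreated. In control libraries Pck1 had 1847, 1574, 1290.0, 1148 and 1887 CPM with alkali, against 2393, 2652, 1853, 1724 and 2559.8 CPM untreated. Untreated oxalate library 40 lay within the range of the alkali-treated ones, and in control libraries the highest alkali-treated values lay above the lowest untreated ones. For Pck1 the log2 fold change was -1.05 ± 0.22 (SE, adjusted p = 0.0278), with -1.56 ± 0.32 in oxalate libraries alone and -0.53 ± 0.16 in control libraries alone. The call of Pck1 was kept in 13 of 20 fits that each left out 1 library, and its adjusted p was 0.0502 to 0.0668 without alkali-treated oxalate 5, 8, 30 or 33, alkali-treated control 4 or untreated oxalate 3 or 12. Without the 6 Adipoq libraries its adjusted p was 0.101.

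The Pck1 promoter is shown because this gene is a textbook target of cyclic AMP signalling, and its window holds 1 copy of the core of the cyclic AMP response element. It is given 5′ to 3′ for the 250 bases before the transcript start (RefSeq, GRCm38.p6, chr2:173152823-173153072, plus strand), with the ACGTCA core in capitals, 91 bases before the start.
Pck1: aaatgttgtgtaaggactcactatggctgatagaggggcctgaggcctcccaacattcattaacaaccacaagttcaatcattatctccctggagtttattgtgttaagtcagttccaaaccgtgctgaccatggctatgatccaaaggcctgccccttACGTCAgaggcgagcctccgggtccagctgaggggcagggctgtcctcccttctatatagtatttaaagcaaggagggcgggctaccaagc
Searched on both strands, ACGTCA was found in 2 of 35 promoters of higher genes (5.71%), 3 of 25 of lower genes (12%) and 1234 of 11592 of all tested genes with a promoter of that length in the table (10.6%). The full TGACGTCA, which contains that core, was found in 1 of 35 promoters of higher genes (2.86%), 0 of 25 of lower genes (0%) and 326 of 11592 of all tested genes with a promoter of that length in the table (2.81%). For Slc38a3 only the name is given here.

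Of the 21 tested genes on the ammonia production list, these 2 were called lower and none higher. At an unadjusted p under 0.05, 1 was higher and 4 were lower, against 955 and 1044 of all 15430 genes. The list median was 0.022 in the additive model, 0.060 in oxalate libraries alone and -0.078 in control libraries alone, against -0.0020 for all genes. Glud1, glutamate dehydrogenase, had a log2 fold change of -0.17 ± 0.077 (adjusted p = 0.357). The ammonia channels of the collecting duct, Rhbg and Rhcg, were at -0.18 ± 0.10 (adjusted p = 0.472) and 0.025 ± 0.094 (adjusted p = 0.944). Rhbg overlaps a predicted gene on the same strand, so its counts are uncertain. The summed level of 30 proximal tubule markers was 32095 to 71912 CPM in alkali-treated and 24271 to 64283 CPM in untreated oxalate libraries, and 74341 to 84137 CPM in alkali-treated and 78676 to 93236 CPM in untreated control libraries, and its part in these results was not tested.

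Bicarbonate and acid transport genes were not called. None of the proximal bicarbonate list passed the test (16 tested, 1 higher and 0 lower at an unadjusted p under 0.05), nor did any of the 17 acid-secreting or 8 bicarbonate-secreting intercalated cell genes. Of the acid-secreting list 8 genes were higher and 0 lower at an unadjusted p under 0.05, and of the bicarbonate-secreting list 2 and 0. Over all 15430 genes 6.19% were higher and 6.77% lower at that threshold, and 0.272% and 0.214% were called. Each list below is to be read beside these shares. The acid-secreting median was 0.21 in the additive model, 0.31 in oxalate libraries alone and 0.053 in control libraries alone. That of the bicarbonate-secreting list was 0.16 in the additive model, 0.29 in oxalate libraries alone and 0.093 in control libraries alone.

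Slc26a4, pendrin, the chloride and bicarbonate exchanger of base-secreting cells, had 111, 115, 113, 132 and 96.6 CPM with alkali, against 73.9, 102, 109, 101 and 62.1 CPM untreated in oxalate libraries. In control libraries Slc26a4 had 108, 128, 117, 109 and 123 CPM with alkali, against 102, 105, 77.1, 97.2 and 108 CPM untreated. The control groups did not overlap, but the log2 fold change of 0.30 ± 0.091 (SE, adjusted p = 0.172) did not pass the test. Slc4a1, the basolateral exchanger of acid-secreting cells, was at 50.4, 49.2, 81.6, 73.4 and 88 CPM with alkali and 29.6, 30, 38.8, 47.5 and 32.1 CPM untreated in oxalate libraries. In control libraries Slc4a1 was at 41.5, 33.4, 50.7, 48.2 and 40.9 CPM with alkali and 44.7, 43.5, 42.2, 44.4 and 43.8 CPM untreated. The oxalate groups of Slc4a1 did not overlap and the control groups did, its additive log2 fold change was 0.46 ± 0.15 (SE, adjusted p = 0.204), and the interaction of diet and alkali had an unadjusted p = 0.000327, adjusted p = 0.363.

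Atp12a, a potassium-transporting proton pump of the collecting duct, showed the other pattern. In oxalate libraries Atp12a had 3.10, 1.79, 1.96, 2.12 and 2.42 CPM with alkali, against 1.03, 1.76, 1.19, 2.38 and 2.45 CPM untreated. In control libraries Atp12a had 1.42, 4.06, 2.47, 2.24 and 3.16 CPM with alkali, against 0.804, 0.820, 0.445, 0.892 and 0.641 CPM untreated. Here the control groups did not overlap and the oxalate groups did. The additive log2 fold change of Atp12a was 1.08 ± 0.26 (SE, adjusted p = 0.07), with 0.38 ± 0.28 in oxalate libraries alone and 1.89 ± 0.29 in control libraries alone (interaction unadjusted p = 0.00139, adjusted p = 0.39). Atp12a was called with 4 group means (adjusted p = 0.0113), DESeq2 (adjusted p = 0.0063) and limma-voom with quality weights (adjusted p = 0.0416). Foxi1, the transcription factor of intercalated cells, was at 0.32 ± 0.10 (adjusted p = 0.172), and Pde1a, a phosphodiesterase kept on the bicarbonate-secreting list, at 0.26 ± 0.062 (adjusted p = 0.0591). The proton pump subunits Atp6v1b1 and Atp6v0a4 (0.091 ± 0.068, adjusted p = 0.612, and -0.058 ± 0.092, adjusted p = 0.845), the carbonic anhydrases Car2 and Car4 (-0.037 ± 0.074, adjusted p = 0.885, and 0.14 ± 0.15, adjusted p = 0.754), the sodium and bicarbonate cotransporter Slc4a4 (-0.062 ± 0.15, adjusted p = 0.906) and the sodium and proton exchanger Slc9a3 (0.14 ± 0.11, adjusted p = 0.641) did not pass the test. Nor did Slc4a9 (0.11 ± 0.11, adjusted p = 0.745), Slc26a7 (0.41 ± 0.20, adjusted p = 0.39) or Slc9a8 (0.41 ± 0.15, adjusted p = 0.248).

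In the distal tubule Trpm6, the apical magnesium channel of the distal convoluted tubule, rose. In oxalate libraries Trpm6 had 33, 39.8, 38.4, 43.3 and 40.6 CPM with alkali, against 22.8, 24.2, 27, 28.1 and 27.6 CPM untreated. In control libraries Trpm6 had 30, 37.3, 28.8, 25.9 and 32.2 CPM with alkali, against 24.2, 18.7, 16.3, 17.8 and 32 CPM untreated. The oxalate groups did not overlap, and in control libraries untreated library 9 lay within the alkali-treated range. For Trpm6 the log2 fold change was 0.54 ± 0.10 (SE, adjusted p = 0.0156), with 0.60 ± 0.10 in oxalate libraries alone and 0.50 ± 0.17 in control libraries alone, and it was called in all 20 fits that left out 1 library and without the Adipoq libraries (adjusted p = 0.0137).

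Pvalb, parvalbumin, a calcium-binding protein of the early distal convoluted tubule, also rose. In oxalate libraries Pvalb had 21.3, 30.7, 15.3, 30.3 and 27.7 CPM with alkali, against 5.84, 9.52, 17.4, 16.2 and 3.93 CPM untreated. In control libraries Pvalb had 23.2, 41.3, 28, 21.1 and 31.7 CPM with alkali, against 15.7, 17.9, 13.8, 19.2 and 20 CPM untreated. In control libraries the groups did not overlap. In oxalate libraries the highest untreated values lay above the lowest alkali-treated one. For Pvalb the log2 fold change was 1.0 ± 0.22 (SE, adjusted p = 0.0446). The call of Pvalb was kept in 6 of 20 fits that each left out 1 library, and its adjusted p was 0.0504 to 0.0952 without alkali-treated oxalate 2, 5, 8 or 30, alkali-treated control 7, 27 or 37, untreated oxalate 3 or 12 or untreated control 9, 13, 19, 26 or 35.

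These 2 were the called genes among 18 tested on the distal convoluted and connecting tubule list. At an unadjusted p under 0.05, 7 were higher and 0 lower, against 6.19% and 6.77% of all genes. The median was 0.23 in the additive model, 0.35 in oxalate libraries alone and 0.10 in control libraries alone. Kl, klotho, the phosphate and calcium hormone of the distal tubule, had a log2 fold change of 0.37 ± 0.10 (adjusted p = 0.126). It was at 0.60 ± 0.17 in oxalate libraries alone and 0.15 ± 0.073 in control libraries alone. Kl was called with total-count scaling (adjusted p = 0.0291) and DESeq2 (adjusted p = 0.0286), but not in the other alternative fits of the additive term. Trpv5, the apical calcium channel, was at 0.15 ± 0.10 (adjusted p = 0.592). Of 23 calcium, phosphate and vitamin D genes, 0 were called, with 5 higher and 2 lower at an unadjusted p under 0.05 and a median of 0.060. Slc20a1, a sodium and phosphate cotransporter that overlaps Gm4430 on the other strand, had -0.74 ± 0.18 (adjusted p = 0.0791). The 15 thick ascending limb genes, which include Umod (0.11 ± 0.10, adjusted p = 0.702), had 5 higher and 0 lower at an unadjusted p under 0.05 and a median of 0.13.

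On the list of citrate, sulfate and oxalate carriers and enzymes 17 genes were tested and none was called, with a median of 0.024. Of these, 1 was higher and 2 lower at an unadjusted p under 0.05, against 6.19% and 6.77% of all genes. Slc13a2, the apical citrate carrier of the proximal tubule, was at 45.6, 29.6, 19.2, 20.7 and 24.4 CPM with alkali, against 32.2, 34.9, 46.4, 55.4 and 21.2 CPM untreated in oxalate libraries. In control libraries Slc13a2 had 59.5, 35.2, 41.7, 50.6 and 48.2 CPM with alkali, against 64.3, 55.3, 56, 60.6 and 59.3 CPM untreated. Groups overlapped in both diets, and its log2 fold change was -0.39 ± 0.16 (SE, adjusted p = 0.3). The basolateral relative Slc13a3 was at -0.48 ± 0.16 (adjusted p = 0.203), with control groups that did not overlap (623 to 731 CPM with alkali and 774 to 916 CPM untreated), and Slc13a5 was at 0.71 ± 0.26 (adjusted p = 0.254). Slc13a4, a sulfate carrier that was not on that list, fell, with a log2 fold change of -0.66 ± 0.15 (SE, adjusted p = 0.0414). The call of Slc13a4 was kept in 7 of 20 fits that each left out 1 library, and its adjusted p was 0.055 to 0.0917 without alkali-treated oxalate 2, 5, 8 or 33, alkali-treated control 1, 4 or 37, untreated oxalate 3, 32 or 39 or untreated control 9, 19 or 35.

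**Figure D2:**
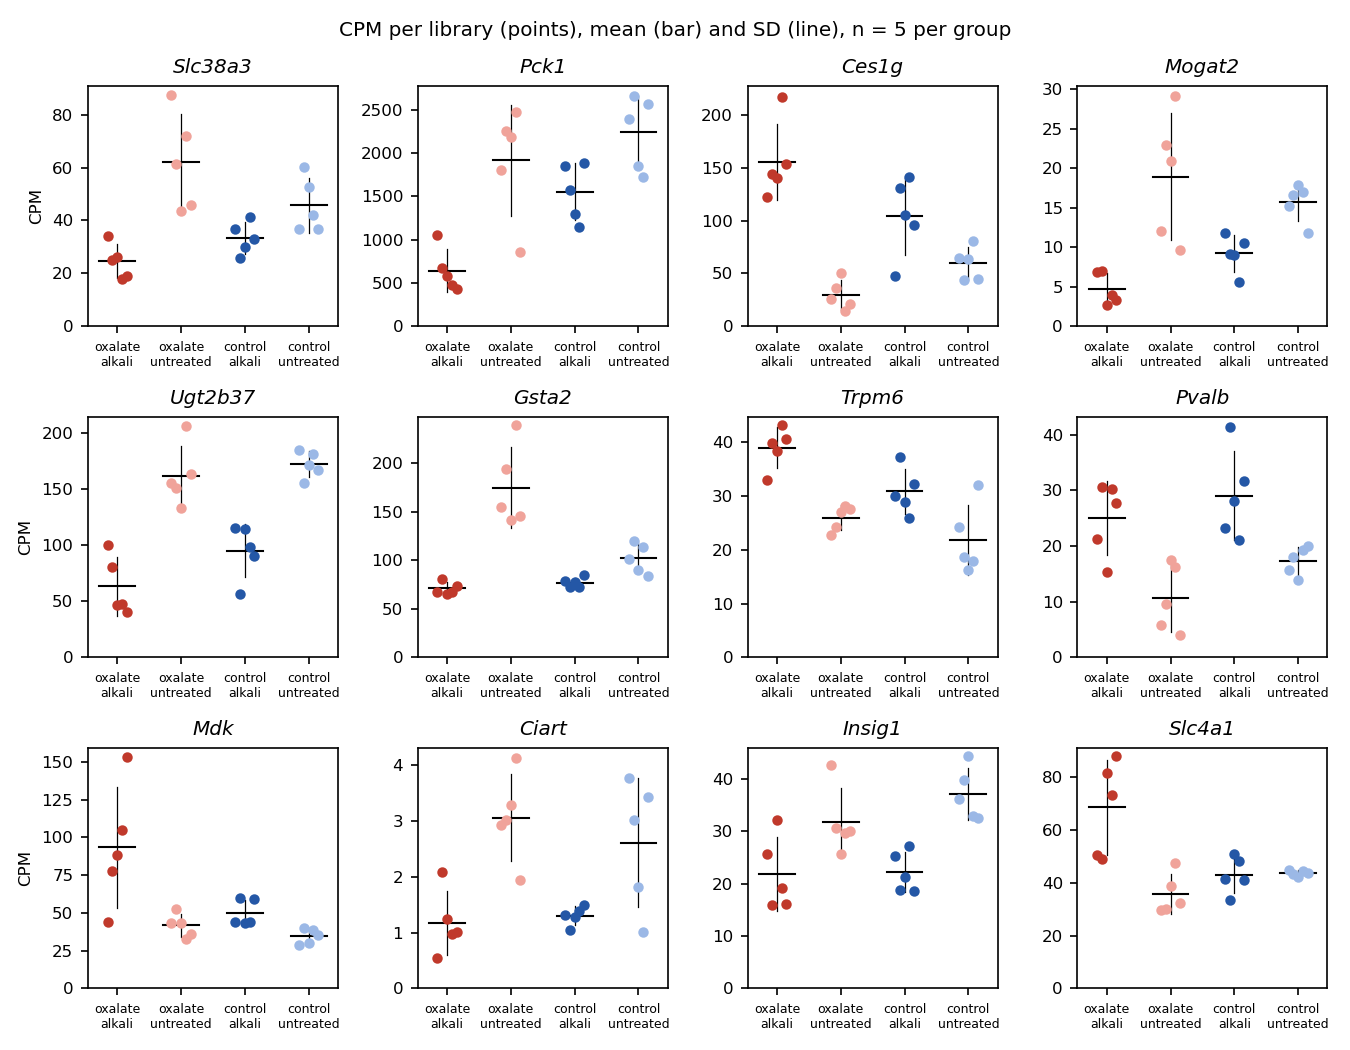
CPM of 12 genes in each library (points), with group means (bars) and SD (lines, 5 libraries per group). Within each panel the groups run from alkali-treated and untreated oxalate to alkali-treated and untreated control libraries. For Gsta2 and Slc38a3 the oxalate groups did not overlap, for Pvalb and Insig1 the control groups did not, for Ugt2b37 neither did, and Slc4a1, which was not called, was higher with alkali in oxalate libraries and level in control libraries.

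Among genes of lipid, retinoid and sterol metabolism, Ces1g, a carboxylesterase that hydrolyses lipid esters and drugs, rose. In oxalate libraries Ces1g had 123, 144, 140.4, 217 and 154 CPM with alkali, against 25.6, 36, 50.9, 14.8 and 21 CPM untreated. In control libraries Ces1g had 47.6, 131, 106, 141 and 95.7 CPM with alkali, against 64.5, 43.6, 63.7, 80.9 and 44.9 CPM untreated. The oxalate groups did not overlap and the control groups did, through alkali-treated library 1. For Ces1g the log2 fold change was 1.60 ± 0.29 (SE, adjusted p = 0.0156), with 2.40 ± 0.30 in oxalate libraries alone and 0.81 ± 0.29 in control libraries alone (interaction unadjusted p = 0.00115, adjusted p = 0.39). Ces1g has close relatives in the genome, which could share reads. It was the called gene among 23 carboxylesterase and cytochrome P450 genes tested, where the median was 0.0084, or -0.0020 with DESeq2's size factors. Of these 23, 3 were higher and 2 lower at an unadjusted p under 0.05, against 6.19% and 6.77% of all genes.

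Mogat2, which makes diacylglycerol from monoacylglycerol, fell. In oxalate libraries Mogat2 had 6.85, 6.97, 2.75, 3.99 and 3.34 CPM with alkali, against 12.1, 22.9, 20.9, 29.1 and 9.63 CPM untreated. In control libraries Mogat2 had 11.8, 9.13, 9.08, 5.61 and 10.6 CPM with alkali, against 15.2, 16.6, 17.9, 17 and 11.8 CPM untreated. The oxalate groups did not overlap, while in control libraries alkali-treated library 1 and untreated library 9 both had 11.8 CPM. For Mogat2 the log2 fold change was -1.37 ± 0.25 (SE, adjusted p = 0.0156), with -1.97 ± 0.35 in oxalate libraries alone and -0.77 ± 0.17 in control libraries alone. Without the Adipoq libraries its adjusted p was 0.0553. Creb3l3, a membrane-bound transcription factor of the fasting response in liver and gut, was low, with means of 1.44 ± 0.506 CPM with alkali and 0.526 ± 0.313 CPM untreated in oxalate libraries (SD). In control libraries its means were 1.10 ± 0.704 CPM with alkali and 0.222 ± 0.123 CPM untreated. Control groups of Creb3l3 did not overlap and oxalate groups did, and its log2 fold change was 1.81 ± 0.33 (SE, adjusted p = 0.0156). It was the called gene among 29 PPAR-alpha targets (median 0.020). Of these targets 5 were higher and 4 lower at an unadjusted p under 0.05, against 6.19% and 6.77% of all genes.

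Bco1, which cleaves beta-carotene to retinal, rose with no overlap in either diet. In oxalate libraries Bco1 had 7.13, 6.77, 4.98, 5.38 and 5.14 CPM with alkali, against 3.40, 2.63, 3.64, 3.21 and 2.20 CPM untreated. In control libraries Bco1 had 5.59, 7.32, 7.32, 4.98 and 6.85 CPM with alkali, against 4.61, 3.46, 3.25, 4.62 and 3.81 CPM untreated. For Bco1 the log2 fold change was 0.83 ± 0.12 (SE, adjusted p = 0.00231), with 0.98 ± 0.19 in oxalate libraries alone and 0.70 ± 0.15 in control libraries alone, and it was called in all 20 fits that left out 1 library and without the Adipoq libraries (adjusted p = 0.0137). Prkag2, a regulatory subunit of the energy sensor AMP-activated kinase, rose by 0.24 ± 0.047 (SE, adjusted p = 0.0192) and is named after its values were seen. Its adjusted p was 0.0968 with total-count scaling and 0.105 without the Adipoq libraries.

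Insig1 holds the sterol sensor of the cell in the endoplasmic reticulum and is itself a target of sterol regulatory element-binding proteins. In oxalate libraries Insig1 had 25.6, 16, 32.2, 19.1 and 16.1 CPM with alkali, against 42.7, 30.7, 25.7, 29.7 and 29.9 CPM untreated. In control libraries Insig1 had 25.2, 18.8, 21.3, 27.2 and 18.5 CPM with alkali, against 36.1, 39.8, 44.4, 32.9 and 32.5 CPM untreated. Control groups did not overlap, and oxalate groups overlapped through alkali-treated library 33. For Insig1 the log2 fold change was -0.64 ± 0.13 (SE, adjusted p = 0.0192), with -0.53 ± 0.20 in oxalate libraries alone and -0.75 ± 0.12 in control libraries alone. It was the called gene among 24 on the cholesterol synthesis list. There 0 were higher and 6 lower at an unadjusted p under 0.05, against 6.19% and 6.77% of all genes. The median of that list was -0.13 in the additive model, -0.10 in oxalate libraries alone and -0.13 in control libraries alone. Sqle, squalene epoxidase, was at -0.41 ± 0.11 (adjusted p = 0.104) and is named after its values were seen.

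Among genes of conjugation and detoxification, Ugt2b37, a glucuronosyltransferase, fell with no overlap in either diet. In oxalate libraries Ugt2b37 had 100.1, 81, 47.1, 47.3 and 40.5 CPM with alkali, against 156, 151, 133, 206 and 163 CPM untreated. In control libraries Ugt2b37 had 115, 56.9, 115, 98.3 and 90.6 CPM with alkali, against 185, 156, 171, 181 and 167 CPM untreated. For Ugt2b37 the log2 fold change was -1.11 ± 0.16 (SE, adjusted p = 0.00231), with -1.34 ± 0.25 in oxalate libraries alone and -0.86 ± 0.16 in control libraries alone. Gsta2, a glutathione S-transferase of the alpha class, fell too. In oxalate libraries Gsta2 had 67.5, 81.2, 65.7, 67.2 and 73.8 CPM with alkali, against 155, 194, 142, 239 and 145 CPM untreated. In control libraries Gsta2 had 78.4, 72.2, 77.3, 72.7 and 84.5 CPM with alkali, against 102, 120.2, 90.1, 114 and 83.5 CPM untreated. The oxalate groups of Gsta2 did not overlap, and in control libraries alkali-treated library 7 lay above untreated library 9 by about 1 CPM. For Gsta2 the log2 fold change was -0.85 ± 0.13 (SE, adjusted p = 0.00545), with -1.29 ± 0.15 in oxalate libraries alone and -0.40 ± 0.093 in control libraries alone (interaction unadjusted p = 8.31e-05, adjusted p = 0.32).

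Gstm1, a transferase of the mu class, averaged 349 ± 23.7 CPM with alkali and 477 ± 63.3 CPM untreated in oxalate libraries (SD, 5 libraries each). In control libraries Gstm1 averaged 391.5 ± 26.4 CPM with alkali and 478 ± 38.8 CPM untreated. It fell, with a log2 fold change of -0.37 ± 0.069 (SE, adjusted p = 0.0159). Ugt2b37, Gsta2 and Gstm1 belong to families of near copies, and reads could have been split among them. Of 25 NRF2 and glutathione genes tested, Gsta2 and Gstm1 were called lower and none higher, with a median of -0.071. At an unadjusted p under 0.05, 0 were higher and 5 lower, against 6.19% and 6.77% of all genes. Ugt2b37, Gsta2 and Gstm1 were each called in all 20 fits that left out 1 library. Gstm1 was not called without the Adipoq libraries (adjusted p = 0.101), whereas Ugt2b37 and Gsta2 were (adjusted p = 0.0361 and 0.0147).

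Of the circadian clock, Ciart, a repressor of the clock transcription factors Clock and Arntl, fell. In oxalate libraries Ciart had 0.551, 2.10, 1.24, 0.978 and 1.02 CPM with alkali, against 2.92, 3.03, 3.29, 4.13 and 1.94 CPM untreated. In control libraries Ciart had 1.31, 1.04, 1.28, 1.39 and 1.49 CPM with alkali, against 3.77, 3.03, 1.81, 1.01 and 3.43 CPM untreated. Groups overlapped in both diets through alkali-treated oxalate library 30 and untreated control library 35. For Ciart the log2 fold change was -1.19 ± 0.23 (SE, adjusted p = 0.0192), with -1.36 ± 0.32 in oxalate libraries alone and -1.0 ± 0.30 in control libraries alone. Without the Adipoq libraries its adjusted p was 0.101. The highest value of Ciart in any library was 4.13 CPM.

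The Ciart promoter is shown because its window holds 3 copies of CACGTG, the E-box bound by clock factors. It covers the 250 bases before the transcript start, 5′ to 3′ (RefSeq, GRCm38.p6, chr3:95882229-95882478, minus strand), with the E-boxes in capitals, starting 116, 58 and 44 bases before the start.
Ciart: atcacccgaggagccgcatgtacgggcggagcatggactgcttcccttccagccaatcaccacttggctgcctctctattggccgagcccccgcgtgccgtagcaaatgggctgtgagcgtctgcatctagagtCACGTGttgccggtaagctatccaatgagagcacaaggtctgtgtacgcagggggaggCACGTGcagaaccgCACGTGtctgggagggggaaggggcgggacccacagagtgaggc
CACGTG reads the same on both strands and was found in 5 of 35 promoters of higher genes (14.3%), 5 of 25 of lower genes (20%) and 1091 of 11592 of all tested genes with a promoter of that length in the table (9.41%).

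Ciart was the called gene among 19 clock genes. Of the 19, 3 were higher and 9 lower at an unadjusted p under 0.05, against 6.19% and 6.77% of all genes. The median was -0.12 in the additive model, -0.17 in oxalate libraries alone and -0.19 in control libraries alone. Named after their values were seen, Arntl and its partner's relative Npas2, of the activating arm, were at 0.43 ± 0.14 (adjusted p = 0.196) and 0.69 ± 0.19 (adjusted p = 0.125). Of the repressing and output arm, Per2 was at -0.71 ± 0.23 (adjusted p = 0.185), Per3 at -0.46 ± 0.15 (adjusted p = 0.2) and the output factor Dbp at -0.69 ± 0.23 (adjusted p = 0.2). The repressor Nr1d1 was at -0.022 ± 0.14 (adjusted p = 0.969). Separate fits gave Dbp -0.71 in oxalate and -0.67 in control libraries, and Arntl 0.48 and 0.39 in the same order. The time of day of sampling is not in the labels, and its part was not tested.

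Of the genes of inflammation, Ubd, the ubiquitin-like modifier FAT10 that cytokines induce, fell. In oxalate libraries Ubd had 2.48, 3.41, 4.78, 3.67 and 3.10 CPM with alkali, against 17, 9.12, 10.6, 7.84 and 13.3 CPM untreated. In control libraries Ubd had 0.581, 0.937, 0.720, 0.770 and 1.71 CPM with alkali, against 1.65, 1.18, 1.23, 1.01 and 2.98 CPM untreated. Oxalate groups did not overlap and control groups did. For Ubd the log2 fold change was -1.31 ± 0.24 (SE, adjusted p = 0.0156), with -1.72 ± 0.23 in oxalate libraries alone and -0.77 ± 0.35 in control libraries alone. Without the Adipoq libraries its adjusted p was 0.0972. Rarres2, chemerin, a chemoattractant of macrophages and dendritic cells, fell, at -0.52 ± 0.10 (SE, adjusted p = 0.0192) and overlaps Lrrc61 on the other strand. It is named after its values were seen, and its adjusted p was 0.0716 with total-count scaling.

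Cxcl1 and Cxcl2, neutrophil chemokines, were called lower but varied widely. In oxalate libraries Cxcl1 had 1.52, 1.67, 2.29, 2.36 and 2.01 CPM with alkali, against 45.2, 17.4, 5.24, 3.70 and 11.1 CPM untreated. In control libraries Cxcl1 had 1.63, 1.22, 0.157, 0.733 and 0.298 CPM with alkali, against 3.77, 3.10, 1.85, 0.406 and 1.13 CPM untreated. Cxcl1 did not overlap in oxalate libraries, where untreated library 12 was highest, and overlapped in control libraries. For Cxcl1 the log2 fold change was -2.32 ± 0.52 (SE, adjusted p = 0.0448). The call of Cxcl1 was kept in 6 of 20 fits that each left out 1 library, and its adjusted p was 0.0506 to 0.111 without alkali-treated oxalate 2, 5, 8, 30 or 33, alkali-treated control 4, 7 or 37, untreated oxalate 3, 12 or 40 or untreated control 13, 19 or 26. Cxcl2 had 0.551, 0.429, 1.77, 0.815 and 0.547 CPM with alkali, against 8.96, 5.99, 2.04, 2.68 and 4.89 CPM untreated in oxalate libraries, and at most 0.285 CPM in any control library. For Cxcl2 the log2 fold change was -2.28 ± 0.48 (SE, adjusted p = 0.0307), and its call rests on the oxalate libraries, with an adjusted p of 0.169 with 4 group means. The call of Cxcl2 was kept in 11 of 20 fits that each left out 1 library, and its adjusted p was 0.0512 to 0.0934 without alkali-treated oxalate 2, 5, 8 or 30, alkali-treated control 4 or 37, untreated oxalate 3 or 12 or untreated control 19.

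These were the called genes among 30 cytokines and chemokines. Of the 30, 0 were higher and 14 lower at an unadjusted p under 0.05, against 6.19% and 6.77% of all genes. The median was -0.52 in the additive model, -0.82 in oxalate libraries alone and -0.0063 in control libraries alone. Macrophage and monocyte markers (24 tested, 0 called) had 0 higher and 14 lower at an unadjusted p under 0.05 and a median of -0.60 in the additive model, -1.01 in oxalate libraries alone and 0.0094 in control libraries alone. Their summed level was 459 to 1682 CPM in alkali-treated and 1295 to 6190 CPM in untreated oxalate libraries, and 198 to 276 CPM in alkali-treated and 195 to 268 CPM in untreated control libraries. Of 13 neutrophil genes 5 were tested and 0 called, with 0 higher and 3 lower at an unadjusted p under 0.05. Their median was -1.16 in the additive model, -1.06 in oxalate libraries alone and -0.35 in control libraries alone. Here and for every list, the median of a diet covers only genes tested in that diet's own fit. The medians of a list can therefore rest on different genes, and genes near 0 in control libraries can be missing from the control median. The additive median was the lowest of the 41 lists with at least 5 tested genes, but these 5 genes were low. They summed to 2.34 to 7.79 CPM in alkali-treated and 5.07 to 17.4 CPM in untreated oxalate libraries. In control libraries they summed to 1.09 to 1.53 CPM with alkali and 0.889 to 3.24 CPM untreated. MHC class II genes (11 tested, 0 called) had 0 higher and 5 lower and a median of -0.34 in the additive model, -0.50 in oxalate libraries alone and -0.067 in control libraries alone. The part of these cells in the results above was not tested. Tubular injury genes (28 tested, 0 called) had 2 higher and 14 lower, with a median of -0.37 in the additive model, -0.72 in oxalate libraries alone and 0.055 in control libraries alone. The injury marker Havcr1 had a log2 fold change of -1.0 ± 0.41 (adjusted p = 0.308), with -1.93 ± 0.43 in oxalate libraries alone and 0.26 ± 0.35 in control libraries alone. Vcam1 was at -0.79 ± 0.24 (adjusted p = 0.174), with -1.40 ± 0.28 in oxalate libraries alone and -0.070 ± 0.19 in control libraries alone. Lcn2 was at -0.33 ± 0.29 (adjusted p = 0.682). On the macrophage and monocyte list, Trem2 (-1.53 ± 0.42, adjusted p = 0.126) and Msr1 (-1.35 ± 0.39, adjusted p = 0.139) had the smallest p. On the tubular injury list these were Krt8 (-0.36 ± 0.095, adjusted p = 0.104) and Krt20 (-1.60 ± 0.45, adjusted p = 0.126). Trem2, Msr1 and Krt20 had group means of at most 0.398 CPM in control libraries and were not tested there alone. In oxalate libraries alone they were at -1.87 ± 0.51, -1.73 ± 0.56 and -2.08 ± 0.39. Krt8 was at -0.56 ± 0.14 in oxalate libraries alone and -0.15 ± 0.077 in control libraries alone.

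Immediate early genes (24 tested, 0 called) had 0 higher and 15 lower at an unadjusted p under 0.05, against 6.19% and 6.77% of all genes. Their median was -0.82 in the additive model, -1.34 in oxalate libraries alone and -0.12 in control libraries alone. Fosb and Nr4a3, both growth signal-induced transcription factors, were at -3.31 ± 0.76 (adjusted p = 0.0582) and -3.32 ± 0.79 (adjusted p = 0.0675), and Fosb ranged from 0.310 to 0.884 CPM with alkali and from 1.06 to 30 CPM untreated in oxalate libraries, and from 0.293 to 1.23 CPM with alkali and from 0.608 to 12.6 CPM untreated in control libraries. Fosb was called with DESeq2 (adjusted p = 0.000453), 4 group means (adjusted p = 0.0327) and the stricter filter (adjusted p = 0.0485). Nr4a3 was called with DESeq2 (adjusted p = 0.00208). The other alternative fits called neither gene. Heat shock and unfolded protein genes (27 tested, 0 called) had 0 higher and 13 lower at an unadjusted p under 0.05. Their median was -0.24 in the additive model, -0.38 in oxalate libraries alone and -0.096 in control libraries alone. Hspb1 was at -1.08 ± 0.31 (adjusted p = 0.139), with -1.79 ± 0.38 in oxalate libraries alone and -0.30 ± 0.27 in control libraries alone. Ddit3, which overlaps Mars on the other strand, was at -0.61 ± 0.19 (adjusted p = 0.172). By diet Ddit3 was at -0.97 ± 0.25 in oxalate libraries alone and -0.23 ± 0.19 in control libraries alone.

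Hspb8, a small heat shock chaperone of the autophagy pathway that was not on that list, fell with no overlap in either diet. In oxalate libraries Hspb8 had 8.13, 12.4, 14, 13.7 and 14 CPM with alkali, against 52.7, 30.9, 30.7, 22.4 and 21.8 CPM untreated. In control libraries Hspb8 had 5.85, 7.01, 4.91, 3.55 and 6.07 CPM with alkali, against 8.85, 7.81, 7.49, 8.80 and 9.12 CPM untreated. For Hspb8 the log2 fold change was -1.0 ± 0.17 (SE, adjusted p = 0.0107), with -1.33 ± 0.24 in oxalate libraries alone and -0.62 ± 0.15 in control libraries alone. Without the Adipoq libraries its adjusted p was 0.0798. The mean level of Hspb8 was higher in untreated oxalate than in untreated control libraries (31.7 ± 12.5 and 8.41 ± 0.716 CPM, SD), a difference not tested here.

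F2, prothrombin, a plasma protein gene that is named after its values were seen, rose with no overlap in either diet. In oxalate libraries F2 had 1.96, 1.79, 2.98, 2.15 and 3.62 CPM with alkali, against 0.250, 0.333, 0.116, 0.0992 and 0.114 CPM untreated. In control libraries F2 had 2.07, 2.46, 2.66, 2.71 and 1.53 CPM with alkali, against 0.889, 0.998, 0.719, 1.22 and 0.980 CPM untreated. For F2 the log2 fold change was 2.35 ± 0.34 (SE, adjusted p = 0.00231), with 3.78 ± 0.37 in oxalate libraries alone and 1.25 ± 0.21 in control libraries alone, and it had the smallest interaction p of all genes (unadjusted p = 5.88e-06, adjusted p = 0.0907). Serpina10, the protein Z-dependent protease inhibitor of clotting, fell. In oxalate libraries Serpina10 had 4.03, 7.15, 15.2, 9.29 and 8.26 CPM with alkali, against 33.3, 19.4, 15.2, 17.3 and 30.2 CPM untreated. In control libraries Serpina10 had 0.980, 1.08, 0.751, 0.733 and 0.744 CPM with alkali, against 0.931, 1.18, 1.16, 1.22 and 2 CPM untreated. Groups overlapped in both diets, and the log2 fold change of Serpina10 was -1.09 ± 0.23 (SE, adjusted p = 0.0288). The call of Serpina10 was kept in 13 of 20 fits that each left out 1 library, and its adjusted p was 0.0504 to 0.0755 without alkali-treated oxalate 5, 8 or 30, alkali-treated control 4, untreated oxalate 12 or 40 or untreated control 9. Masp2, a protease of the lectin pathway of complement, rose by 0.86 ± 0.17 (SE, adjusted p = 0.0235) and Hc, complement C5, fell, at -1.79 ± 0.37 (SE, adjusted p = 0.0274), both named after their values were seen. Hc had at most 0.0713 CPM in control libraries. Hc also had an adjusted p of 0.279 with 4 group means, 0.0653 with limma-voom, 0.0827 with quality weights and 0.0814 without the Adipoq libraries. Of 19 complement genes tested on a list that holds neither Masp2 nor Hc, 0 were called, with a median of -0.13. On that list 1 was higher and 2 lower at an unadjusted p under 0.05, against 6.19% and 6.77% of all genes. Masp2 overlaps Tardbp on the other strand and was called in 18 of the 20 fits, with 0.0512 to 0.0518 as its adjusted p without alkali-treated oxalate 30 or untreated oxalate 12. The call of Hc was kept in 14 of 20 fits that each left out 1 library, and its adjusted p was 0.0565 to 0.0859 without alkali-treated oxalate 2, 5, 8 or 30 or untreated oxalate 3 or 12.

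Among receptors and growth factors, Agtr1a, the type 1 angiotensin II receptor, rose. In oxalate libraries Agtr1a had 52.5, 43.3, 42.3, 45.1 and 43.5 CPM with alkali, against 30.5, 33.3, 34.1, 31.4 and 32.1 CPM untreated. In control libraries Agtr1a had 51.5, 51.5, 50.8, 63.2 and 49.6 CPM with alkali, against 49.7, 43.8, 45.5, 52.4 and 48.6 CPM untreated. Oxalate groups did not overlap and control groups did. For Agtr1a the log2 fold change was 0.32 ± 0.065 (SE, adjusted p = 0.0235), with 0.50 ± 0.086 in oxalate libraries alone and 0.15 ± 0.075 in control libraries alone. The call of Agtr1a was kept in 16 of 20 fits that each left out 1 library, and its adjusted p was 0.0507 to 0.0575 without alkali-treated oxalate 5, alkali-treated control 4 or untreated oxalate 12 or 39. Of 11 renin-angiotensin genes Agtr1a was the called one. Among the 11, 4 were higher and 2 lower at an unadjusted p under 0.05, against 6.19% and 6.77% of all genes. Ren1, renin, was at 0.38 ± 0.17 (adjusted p = 0.368), with 0.83 ± 0.25 in oxalate libraries alone and -0.065 ± 0.13 in control libraries alone.

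Mdk, midkine, a heparin-binding growth factor, rose. In oxalate libraries Mdk had 43.7, 77.7, 88.3, 105 and 153 CPM with alkali, against 43.3, 52.6, 43.5, 32.9 and 36.2 CPM untreated. In control libraries Mdk had 44.2, 59.7, 43, 44 and 59 CPM with alkali, against 28.7, 40.1, 29.7, 38.9 and 35.4 CPM untreated. Control groups did not overlap, and alkali-treated oxalate library 2 lay within the untreated oxalate range. For Mdk the log2 fold change was 0.85 ± 0.17 (SE, adjusted p = 0.0228). The call of Mdk was kept in 18 of 20 fits that each left out 1 library, and its adjusted p was 0.0523 to 0.0536 without untreated oxalate 12 or 40. Fgf1, the acidic fibroblast growth factor, averaged 333 ± 79.5 CPM with alkali and 195 ± 35.7 CPM untreated in oxalate libraries (SD, 5 libraries each). In control libraries Fgf1 averaged 408 ± 50.9 CPM with alkali and 330.4 ± 40 CPM untreated. It rose by 0.54 ± 0.12 (SE, adjusted p = 0.0415). The call of Fgf1 was kept in 5 of 20 fits that each left out 1 library, and its adjusted p was 0.0548 to 0.0993 without alkali-treated oxalate 2, 5, 8 or 30, alkali-treated control 1 or 4, untreated oxalate 3, 12, 32, 39 or 40 or untreated control 9, 19, 26 or 35.

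Shank2, a scaffold that binds membrane transporters and receptors, rose by 0.43 ± 0.079 (SE, adjusted p = 0.0156) and Sema4a, a semaphorin of immune and neural cells, by 0.32 ± 0.054 (SE, adjusted p = 0.00994). Without the Adipoq libraries the adjusted p was 0.0972 for Shank2 and 0.0981 for Sema4a. Sema4a had no overlap in either diet. In oxalate libraries Sema4a had 139, 139, 133, 130.2 and 139.6 CPM with alkali, against 109, 116, 109, 105 and 89.1 CPM untreated. In control libraries Sema4a had 138, 136, 133, 157 and 138 CPM with alkali, against 105, 118, 113, 130.4 and 115 CPM untreated. The SD of Sema4a was 4.12 CPM in alkali-treated oxalate and 9.97 CPM in untreated oxalate libraries. In control libraries it was 9.42 CPM with alkali and 9.375 CPM untreated. Amigo1, a neural adhesion molecule, rose by 0.25 ± 0.046 (SE, adjusted p = 0.0156), with an adjusted p of 0.0563 under total-count scaling and 0.0553 without the Adipoq libraries. The NMDA receptor subunit Grin3a fell, at -1.13 ± 0.21 (SE, adjusted p = 0.018) from means at or under about 1 CPM, and Sorcs1, a sorting receptor of the VPS10 family, fell, at -1.61 ± 0.23 (SE, adjusted p = 0.00231). These last 2 are named after their values were seen.

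Principal cell and sodium channel genes (18 tested) held no called gene and had a median of 0.14. At an unadjusted p under 0.05, 5 were higher and 3 lower, against 6.19% and 6.77% of all genes. Tsc22d3, a glucocorticoid- and aldosterone-induced leucine zipper, was at -0.57 ± 0.14 (adjusted p = 0.0689) and Fxyd4, a subunit of the sodium pump, at 0.40 ± 0.11 (adjusted p = 0.128). Aqp4, a basolateral water channel, was at 0.64 ± 0.28 (adjusted p = 0.344), with 1.45 ± 0.32 in oxalate libraries alone and -0.12 ± 0.28 in control libraries alone. Of 9 red blood cell genes, Epb42, the membrane skeleton protein 4.2 that binds Slc4a1, was called higher at 0.91 ± 0.18 (SE, adjusted p = 0.0192), at means between 0.800 and 1.72 CPM. The globin genes beside it were at 0.071 ± 0.25 (adjusted p = 0.941) for Hba-a1 and -0.064 ± 0.23 (adjusted p = 0.944) for Hbb-bs. Sptb, beta-spectrin of the same skeleton, rose by 0.37 ± 0.079 (SE, adjusted p = 0.0347), is named after its values were seen and overlaps Plekhg3 on the other strand. The call of Sptb was kept in 8 of 20 fits that each left out 1 library, and its adjusted p was 0.0531 to 0.0763 without alkali-treated oxalate 5, 8 or 30, alkali-treated control 1 or 4, untreated oxalate 12, 32, 39 or 40 or untreated control 9, 13 or 19. With total-count scaling the adjusted p of Sptb was 0.0785.

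Among other genes with a small p, Ttc22, a tetratricopeptide repeat protein, rose. In oxalate libraries Ttc22 had 6.72, 6.56, 6.45, 6.30 and 8.29 CPM with alkali, against 3.12, 2.40, 3.12, 2.91 and 3.41 CPM untreated. In control libraries Ttc22 had 5.08, 3.92, 5.10, 7.37 and 4.50 CPM with alkali, against 3.72, 2.96, 3.25, 4.14 and 3.05 CPM untreated. Oxalate groups did not overlap, control groups did, and the log2 fold change was 0.90 ± 0.13 (SE, adjusted p = 0.00231). Fam25c, which had the smallest p of all genes, fell with no overlap in either diet and is named after its values were seen. In oxalate libraries Fam25c had 0.827, 0.808, 0.851, 0.815 and 0.756 CPM with alkali, against 1.84, 1.83, 2.27, 2.61 and 1.37 CPM untreated. In control libraries Fam25c had 0.980, 0.764, 1.28, 0.953 and 1.23 CPM with alkali, against 2.16, 2.10, 2.53, 1.87 and 1.51 CPM untreated. For Fam25c the log2 fold change was -1.12 ± 0.14 (SE, adjusted p = 0.0017), with -1.27 ± 0.22 in oxalate libraries alone and -0.96 ± 0.21 in control libraries alone.

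The remaining genes that the naming rule selected and that were called in all 20 fits without 1 library were Fbxl16 (0.71 ± 0.12, adjusted p = 0.0107), Plcxd1 (0.66 ± 0.11, adjusted p = 0.0112), Insc (1.04 ± 0.20, adjusted p = 0.0192), Ccdc151 (0.81 ± 0.16, adjusted p = 0.0192) and Natd1 (0.23 ± 0.042, adjusted p = 0.0156), which rose. Olfm4 (-0.50 ± 0.083, adjusted p = 0.00947), Epdr1 (-0.54 ± 0.095, adjusted p = 0.0132), Hebp1 (-0.50 ± 0.091, adjusted p = 0.0156) and Amz1 (-0.71 ± 0.13, adjusted p = 0.0156) fell. Plcxd1, Hebp1 and Amz1 each overlap another gene on the opposite strand, and whether the counting used strand is not stated. Clec2h, a C-type lectin with near copies, rose by 0.75 ± 0.17 (adjusted p = 0.0483). The call of Clec2h was kept in 3 of 20 fits that each left out 1 library, and its adjusted p was 0.0549 to 0.101 without alkali-treated oxalate 2, 5, 8, 30 or 33, alkali-treated control 4, 7, 27 or 37, untreated oxalate 12, 32, 39 or 40 or untreated control 9, 13, 19 or 26. Crisp1, a secretory protein named after its values were seen, was called lower at -2.51 ± 0.52 (adjusted p = 0.0288), was at 0 in all 5 alkali-treated and 4 of 5 untreated control libraries (0.0406 CPM in untreated control library 35), so its call rests on the oxalate libraries, and moved to -1.64 without untreated oxalate library 40, where it lost its call. The call of Crisp1 was kept in 13 of 20 fits that each left out 1 library, and its adjusted p was 0.0518 to 0.138 without alkali-treated oxalate 2, 5, 8 or 30, untreated oxalate 12 or 40 or untreated control 35. Crisp1 was not called with 4 group means (adjusted p = 0.686) or limma-voom (adjusted p = 0.0803).

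**Figure D3:**
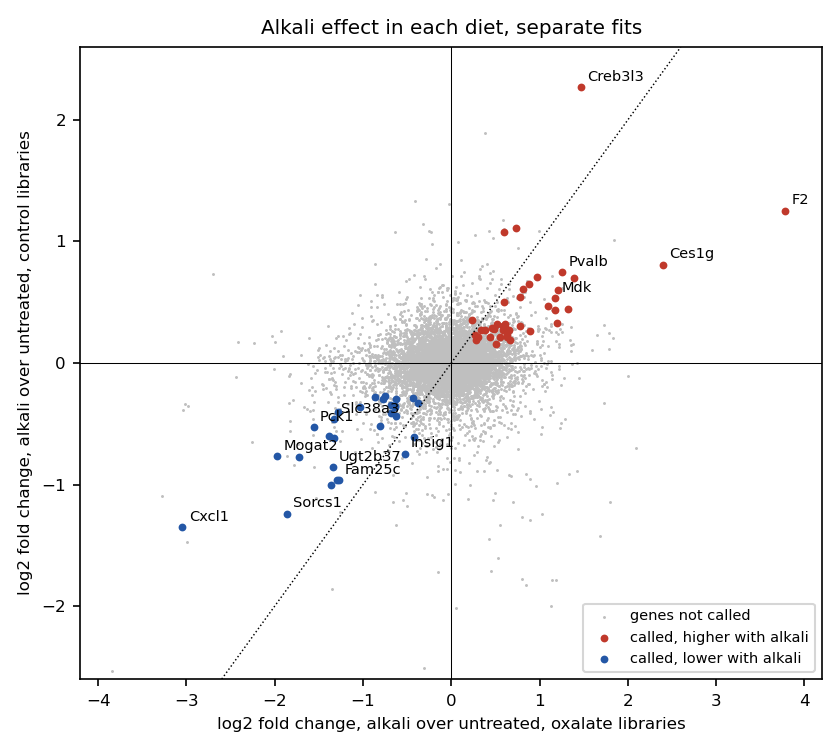
Log2 fold change of alkali over untreated in oxalate libraries alone (horizontal axis) and in control libraries alone (vertical axis) for genes tested in both separate fits, with grey points for genes not called, red for genes called higher and blue for genes called lower in the additive model. The dotted line marks equal change. All 70 called genes tested in both fits lie at the lower left or the upper right, and 64 lie nearer to the horizontal axis than the line. The axes leave out 5 genes that were not called.

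The 2 diets were also fitted separately. Of the 75 genes, 70 were tested in both fits, all 70 had the same sign and 64 had an unadjusted p under 0.05 in both. The additive term was fitted to these same libraries, so that count describes the genes chosen and supports nothing further. The other 6 (unadjusted p under 0.05 in oxalate libraries alone) include Agtr1a, Cxcl1 and Coq10b. The 5 genes not tested in control libraries alone were Medag, Hc, Crisp1, Cxcl2 and Htr2b, which were near 0 there. Over the 70, the median size of the log2 fold change was 0.74 in oxalate and 0.385 in control libraries, against 0.15 and 0.069 over all genes tested in both, and 64 of the 70 were larger in oxalate libraries. The 6 larger in control libraries were Creb3l3, Epb42, Insig1, Cpeb3, Gm2115 and Arnt2.

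Control libraries gave a replicate that the oxalate fit had not used. In oxalate libraries alone 15 genes were called higher and 14 lower of 15314 (0.189%), 13 of them among the 75. Of these 29 genes, 28 were tested in control libraries, 21 had the same sign there, and 11 had an unadjusted p under 0.05 with the same sign and 0 with the opposite sign. Over all 14392 genes of the control fit, 742 (5.16%) had an unadjusted p under 0.05. In control libraries alone 0 genes were called by edgeR (0%; smallest adjusted p = 0.179), 53 by DESeq2 (783 at an unadjusted p under 0.05), and 0 by limma-voom with or without quality weights (1038 and 755 unadjusted). Of 14349 genes tested in both fits, 7664 had the same sign (53.4%).

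The difference between diets was tested as an interaction. By edgeR 0 of 15430 genes were called (0%; smallest adjusted p = 0.0907), with 1429 (9.26%) at an unadjusted p under 0.05. DESeq2 called 26 (1545 unadjusted), limma-voom 0 (1182 unadjusted) and limma-voom with quality weights 1 (1933 unadjusted). Among the 75 genes, 24 had an interaction p under 0.05 before adjustment. None of these interactions passed the adjusted threshold.

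Separation of libraries gave a second description. Of 15430 genes, 16 (0.104%) had all 5 alkali-treated libraries above, or all 5 below, all 5 untreated ones in both diets and in the same direction, 8 higher and 8 lower, and 1 gene was separated in opposite directions. Of the 16, 14 were called: Bco1, F2, Sema4a, Fbxl16, Btbd11, Arnt2 and 2810021J22Rik higher, and Fam25c, Ugt2b37, Olfm4, Hspb8, Epdr1, Lrp12 and Ly6a lower. In oxalate libraries 543 genes (3.52%) were separated and in control libraries 158 (1.02%), 56 and 23 of them called. Arnt2 (0.29 ± 0.064, adjusted p = 0.0425), Ly6a (-0.36 ± 0.079, adjusted p = 0.0397) and 2810021J22Rik (0.38 ± 0.084, adjusted p = 0.0414) were called in 3, 6 and 6 of 20 fits that left out 1 library.

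**Figure D4:**
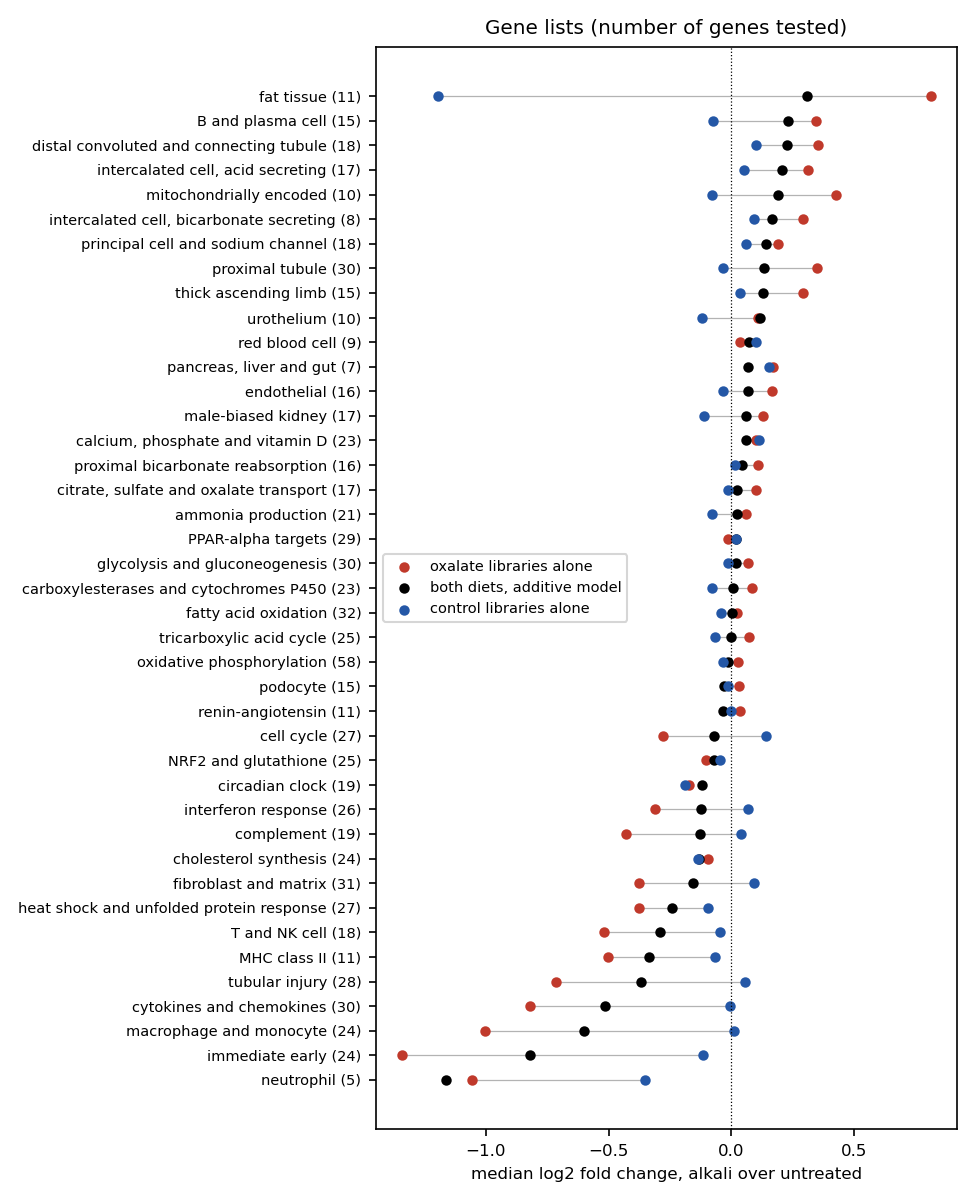
Median log2 fold change of alkali over untreated (horizontal axis) for 41 gene lists with at least 5 tested genes (vertical axis, number tested in brackets), in oxalate libraries alone (red), the additive model (black) and control libraries alone (blue). The dotted line is the median of all genes. Medians of a diet alone cover only the list's genes tested in that diet's fit, which can be fewer than the number in brackets. Immediate early, macrophage, cytokine and tubular injury lists lie to the left in oxalate libraries and between -0.12 and 0.06 in control libraries, while the cholesterol synthesis and circadian clock lists lie left of the line in both.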

How the data were processed

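RNA was sequenced from 20 mouse libraries after stranded poly(A) TruSeq preparation, per the labels' protocols. The authors deposited raw whole-number counts per gene, 1 column per library, for 25700 Ensembl mouse identifiers. The submitters' processing notes name bcl2fastq 2.19, Trimmomatic, STAR 2.7.1, featureCounts and edgeR, without the strand setting, so counts of overlapping genes are uncertain. Among called genes named only in passing, Htr2b overlaps Psmd1 and Gm2115 overlaps Gm44928 on the other strand. Not every overlap is given beside its gene. The notes also name the human build GRCh38.p5, which mouse identifiers cannot come from, so the mouse build in use is not known. GENCODE M21 (GRCm38) gave symbols for 25664 identifiers, and the other 36 held at most 0.0226% of a library's counts.

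Groups came from sample titles and treatment labels. Genes passing filterByExpr at a minimum count of 10 were kept, which left 15430 and removed 10270. Libraries were scaled by the trimmed mean of M-values (TMM), and an additive model of diet and alkali was fitted by edgeR 4.0.16's robust quasi-likelihood method in R 4.3.3 (common biological coefficient of variation 0.205). Separate fits per diet and an interaction model followed. A gene counted as called when its p, adjusted by Benjamini and Hochberg's method, was under 0.05. The SE is the log2 fold change over the square root of F. Total counts of 25547840 to 39550689 per library make counting error small beside the spread between libraries for all but the lowest genes, of which 14 called ones had an average log2 CPM under 1.

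The naming rule took up to 12 genes per direction by size and 10 by p among called genes whose mean log2 CPM reached 1. Genes taken by size, but not those taken by p, also needed the same sign and an unadjusted p under 0.05 in both separate fits. The rule added a panel of kidney genes and, per described list, up to 4 called members or the 2 with the smallest p. Any other gene was picked with its values in view or listed because it met a criterion stated beside it, and not every such gene is marked. The members and lists were chosen with earlier results of these data known. The code was tested on simulated counts. Alternatives were DESeq2 1.42.0 and limma 3.58.1 (voom, with and without quality weights), DESeq2's size factors, total-count scaling, no filter, a filter of at least 1 CPM in 5 libraries, 4 group means, each library left out, and the 6 libraries with Adipoq above 1 CPM left out. Promoter sequences are the 250 bases before the start in RefSeq's GRCm38.p6 table, which holds 35 of the 42 higher and 25 of the 33 lower genes. Some genes are not reported here.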

Additional observations from a re-analysis of the deposited data

Results flagged for a closer look

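Within groups of 5 libraries, 23 values of 316 groups checked (79 genes) stood far from the other 4 by Dixon's gap test at the 95% level, which chance passes in about 1 of 20 groups. In every sentence the library's CPM is given first and the range of the other 4 libraries of its group after it.

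Alkali-treated oxalate library 2 stood apart for 6 genes. It was lower for Hspb8 (8.13 CPM, others 12.4 to 14), and higher for Epdr1 (13.4, others 8.32 to 9.7), Shank2 (60.4, others 45.3 to 48), Agtr1a (52.5, others 42.3 to 45.1), Slc9a8 (346, others 141 to 174) and Glud1 (373, others 259 to 285). Alkali-treated oxalate library 8 was high for Ttc22 (8.29, others 6.3 to 6.72) and library 33 of that group for Cxcl2 (1.77, others 0.429 to 0.815).

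Alkali-treated control library 4 was high for Sema4a (157, others 133 to 138), Agtr1a (63.2, others 49.6 to 51.5) and Ren1 (97.6, others 73.1 to 79.1). Alkali-treated control library 27 was high for Nr4a3 (1.18, others 0.112 to 0.403) and Ddit3 (18.3, others 11 to 12.7). Library 37 of that group was low for Insc (1.69, others 3.65 to 3.92) and library 1 low for Clec2h (75.1, others 105 to 112).

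Untreated oxalate library 12 was high for the injury marker Havcr1 (137, others 26.8 to 36.8), library 40 for Olfm4 (67.3, others 44.3 to 49.4) and library 3 for Natd1 (32.4, others 30.3 to 30.9). Untreated control library 19 was high for the immediate early and stress genes Fosb (12.6, others 0.608 to 1.85), Nr4a3 (10.7, others 0.122 to 0.565) and Ddit3 (23.1, others 11.8 to 14.5). Untreated control library 26 was low for Slc13a3 (774, others 894 to 916), and library 9 high for Serpina10 (2, others 0.931 to 1.22).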

How the results depend on the processing

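No paired analysis was possible because the groups share no replicate numbers. The additive counts of 42 higher and 33 lower genes became 117 and 116 with DESeq2, 91 and 105 with limma-voom with quality weights, 70 higher with 4 group means (44 lower), and 6 and 16 without the Adipoq libraries. Leaving out 1 library gave 20 to 44 higher and 19 to 37 lower. Of the 75 genes, 72 were kept with DESeq2's size factors, 57 with total-count scaling, 59 with no filter, 72 with the stricter filter, 75 with DESeq2, 71 with limma-voom, 69 with quality weights and 71 with 4 group means. In oxalate libraries alone the 15 higher and 14 lower genes became 242 and 298 with DESeq2, 153 and 150 with quality weights, and 26 lower without the Adipoq libraries, with 4 to 19 and 1 to 29 without 1 library. In control libraries alone the counts of 0 became 18 higher and 35 lower with DESeq2 and 1 lower without the Adipoq libraries, with 0 to 1 in each direction without 1 library. For the interaction the counts of 0 became 12 higher and 14 lower with DESeq2, 1 lower with quality weights and 1 higher without the Adipoq libraries, with 0 to 2 higher and 0 to 1 lower without 1 library. Fitting 14 libraries in place of 20 leaves fewer samples, and the causes of the other shifts were not tested. The 16 genes with no overlap in both diets numbered 15, 24, 14 and 17 under the other scalings and filters. Over the 117 genes named or called, 914 of 1050 values under alternatives other than single libraries kept direction and call, 109 lost the call and 27 gained it. Of 2340 values without 1 library, 1906 kept both, 420 lost the call, 9 gained it and 5 changed sign, all of genes near 0: Car2 (log2 fold change -0.037) ran from -0.067 without untreated control library 26 to 0.010 without untreated oxalate library 39, and Rhcg (0.025) ran from -0.030 without untreated oxalate library 40 to 0.058 without untreated oxalate library 32, and was also below 0 without oxalate libraries 12 (untreated), 5 or 8 (both alkali-treated). Depth limits what can be said of genes under about 1 CPM, such as Creb3l3 and Grin3a.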

Other observations

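Other called genes were metabolic enzymes and carriers, all chosen after their values were seen. Fpgs, which adds glutamate tails to folate, rose by 0.44 ± 0.088 (SE, adjusted p = 0.0228) and overlaps Eng on the other strand. It averaged 76 ± 12.4 CPM with alkali and 49.8 ± 7.71 CPM untreated in oxalate libraries, and 89 ± 7.16 CPM with alkali and 73.8 ± 5.98 CPM untreated in control libraries (SD, 5 libraries each). The call of Fpgs was kept in 18 of 20 fits that each left out 1 library, and its adjusted p was 0.0517 to 0.0536 without alkali-treated oxalate 30 or untreated oxalate 12. Uroc1, urocanate hydratase of histidine breakdown, rose by 0.46 ± 0.10 (SE, adjusted p = 0.0397). The call of Uroc1 was kept in 7 of 20 fits that each left out 1 library, and its adjusted p was 0.0506 to 0.0859 without alkali-treated oxalate 2, 5, 8, 30 or 33, alkali-treated control 4 or 7, untreated oxalate 12, 32 or 40 or untreated control 13, 26 or 35. Slc16a6, of the monocarboxylate transporter family, was lower, at -0.52 ± 0.10 (SE, adjusted p = 0.0228), and overlaps Amz2 and Arsg on the other strand. The call of Slc16a6 was kept in 16 of 20 fits that each left out 1 library, and its adjusted p was 0.0501 to 0.0536 without alkali-treated oxalate 5 or 30, untreated oxalate 12 or untreated control 19. Coq10b, a coenzyme Q-binding protein, was lower, at -0.58 ± 0.13 (SE, adjusted p = 0.0405), and overlaps E330011M16Rik on the other strand. The call of Coq10b was kept in 6 of 20 fits that each left out 1 library, and its adjusted p was 0.0596 to 0.0942 without alkali-treated oxalate 2, 5, 8, 30 or 33, alkali-treated control 1, 4 or 37, untreated oxalate 3, 12, 32 or 39 or untreated control 13 or 19.

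Signalling genes were also among the 75, and the genes given here were chosen after their values were seen. Mapk10, the Jun kinase JNK3, rose by 0.78 ± 0.17 (SE, adjusted p = 0.035) and Mapk8ip1, a scaffold of Jun kinases, by 0.32 ± 0.068 (SE, adjusted p = 0.0353). Mapk8ip1 overlaps 1700029I15Rik on the other strand. The call of Mapk10 was kept in 8 of 20 fits that each left out 1 library, and its adjusted p was 0.0523 to 0.0835 without alkali-treated oxalate 2, 5 or 30, alkali-treated control 4, 7 or 37, untreated oxalate 3, 12, 39 or 40 or untreated control 13 or 26. The call of Mapk8ip1 was kept in 8 of 20 fits that each left out 1 library, and its adjusted p was 0.0508 to 0.0835 without alkali-treated oxalate 2, 5, 8 or 30, alkali-treated control 1, 4 or 37, untreated oxalate 12, 32 or 39 or untreated control 13 or 26. Ramp3, a partner of the calcitonin receptor-like receptor, was lower, at -0.47 ± 0.10 (SE, adjusted p = 0.0307). The call of Ramp3 was kept in 9 of 20 fits that each left out 1 library, and its adjusted p was 0.0504 to 0.0663 without alkali-treated oxalate 2, 5, 8, 30 or 33, alkali-treated control 4, 27 or 37, untreated oxalate 3 or 12 or untreated control 35. Cdkl1, a kinase of the cyclin-dependent kinase-like family, rose by 0.42 ± 0.086 (SE, adjusted p = 0.0252), and its adjusted p was 0.0546 without alkali-treated oxalate library 5, 0.0748 with total-count scaling and 0.153 without the Adipoq libraries. Medag, an adipocyte differentiation gene, was lower, at -1.56 ± 0.31 (SE, adjusted p = 0.0192), and had at most 1.03 CPM in control libraries. The call of Medag was kept in 18 of 20 fits that each left out 1 library, and its adjusted p was 0.0518 to 0.0537 without alkali-treated oxalate 30 or untreated oxalate 12.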
